A study of Mus musculus with 24 samples.

Results

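The genes described here encode 7 receptors of mouse natural killer (NK) cells, namely Ncr1, Klrb1c, Klrk1, Klrd1, Klre1, Klrc1 and Klrg1. They were chosen by name, as the entries of the deposited count table whose Ensembl identifier carries 1 of these symbols in the GENCODE M21 annotation, and they are 7 of the 55401 genes in that table. All 7 passed the filter on low counts in every comparison.

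NK cells are innate lymphocytes that kill tumor cells without prior priming, and they set the signals of activating receptors against those of inhibitory receptors. Ncr1 (NKp46) and Klrb1c (NK1.1) are activating receptors that serve to identify NK cells in C57BL/6 mice. Klrk1 (NKG2D) is an activating receptor for stress-induced ligands such as the Raet1 family, and it signals through the adaptor Hcst (DAP10). Klrd1 (CD94) pairs with Klrc1 (NKG2A) to form an inhibitory receptor for the nonclassical class I molecule H2-T23 (Qa-1). Klre1 pairs with Klri1 or Klri2, and Klrg1 is an inhibitory receptor for cadherins that is found on mature NK cells and on effector T cells. Klrk1, Klrd1, Klrc1 and Klrg1 are also made by T cells, so a bulk tumor level of these genes is not that of NK cells alone.

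Bulk poly(A) RNA was sequenced from 24 TC2Ras tumors, a mouse prostate adenocarcinoma line that carries activated Ras, grown in male C57/BL6 mice aged 8 to 10 weeks. The mice received into muscle, by sonoporation, either a plasmid that expresses IL-27 with a targeting peptide (IL-27pepL) or an empty vector, which the intratibial titles name pORF0 and the SC titles do not name. The subcutaneous (SC) tumors, grown from TC2Ras cells in the flanks and harvested 1 week after implantation, comprised 2 that were given the empty vector (SC control) and 2 that were given IL-27 (SC IL-27). The intratibial tumors, grown in bone from luciferase-tagged TC2Ras-Luc cells, fell into 4 treatments, which were the empty vector with the PvP vehicle (control), the IL-27 vector with PvP (IL-27), the empty vector with the kinase inhibitor cabozantinib (cabo), and the IL-27 vector with cabozantinib (IL-27+cabo). Each was sampled on day 14 (D14, 3 tumors a group, 12 in all) and at the end of study (EOS, 2 tumors a group, 8 in all). EOS came when a mouse had reached its ethical endpoint, so the EOS day differed between mice and is not given. Cabozantinib or PvP was given by mouth daily up to day 14, so tumors taken later were no longer under dosing. The paper reports longer survival with cabozantinib than in control, so the EOS day may also differ with treatment. Both tibiae or flanks of a mouse were injected, and the labels do not say whether a sample is 1 tumor or a pool. Each intratibial title carries its own number, read here as that of the mouse. Which mouse an SC tumor came from is not given. The SC p-values therefore measure only the spread between those samples, which may be technical. The sample titles carry 1 code for all SC tumors and another for all intratibial tumors, so the site of growth and that code cannot be told apart. The libraries held 63729005 to 83782258 counts. Every group held transcripts of the tumor line, with a summed level of 62.4 to 351 CPM (counts scaled to a common library size) for the list of prostate epithelium and tumor line genes, and also transcripts of skeletal muscle.

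All but 1 of the genes lie in or near the NK gene complex on chromosome 6, and Ncr1 lies on chromosome 7 (GRCm38 coordinates of GENCODE M21). Klre1 (ENSMUSG00000050241, chr6:129577905-129585827, + strand), Klrd1 (ENSMUSG00000030165, chr6:129591782-129598775, +), Klrk1 (ENSMUSG00000030149, chr6:129610323-129623864, −) and Klrc1 (ENSMUSG00000030167, chr6:129666015-129678973, −) lie within 101.1 kb. Klrb1c (ENSMUSG00000030325, chr6:128778485-128789215, −) and Klrg1 (ENSMUSG00000030114, chr6:122270596-122282882, −) lie further towards the start of the chromosome, and Ncr1 (ENSMUSG00000062524) is at chr7:4337724-4345164 (+). Exons of Klrb1c overlap those of the predicted gene Gm44511 on the same strand, and the closely related Klrc2 and Klrc3 lie between Klrk1 and Klrc1, so reads of Klrb1c and Klrc1 may be split or shared with these neighbours.

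The 250 bases before the transcript starts were searched for 3 short motifs of lymphocyte transcription factors. RefSeq promoter windows (GRCm38.p6) were at hand for 5 of the 7 genes, as 7 windows, with none for Klrd1 and Klrg1. The RUNX core TGTGGT, or ACCACA on the other strand, was present in a window of all 5 genes, against 14% of all 32851 windows. The ETS letters CAGGAA or TTCCTG were found only before Klrk1, against 25.7% of all windows, and the T-box letters AGGTGT or ACACCT before none of the 5, against 11.8%. The windows of the activating receptors Klrk1 and Ncr1 and of the inhibitory Klrc1 are shown, since Klrk1 and Klrc1 rose in SC tumors and Ncr1 is the receptor that marks NK cells. Capitals mark the RUNX letters and, in Klrk1, also the ETS letters CAGGAA. Klrk1 covers chr6:129623865-129624114 (−), Klrc1 chr6:129678974-129679223 (−) and Ncr1 chr7:4337465-4337714 (+), each read 5′ to 3′ along the gene.
Klrk1: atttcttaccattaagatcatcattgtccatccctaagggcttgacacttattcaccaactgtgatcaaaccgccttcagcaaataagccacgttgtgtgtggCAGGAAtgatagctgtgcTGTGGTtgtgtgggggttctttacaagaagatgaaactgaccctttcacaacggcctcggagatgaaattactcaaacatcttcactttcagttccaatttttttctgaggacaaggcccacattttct
Klrc1: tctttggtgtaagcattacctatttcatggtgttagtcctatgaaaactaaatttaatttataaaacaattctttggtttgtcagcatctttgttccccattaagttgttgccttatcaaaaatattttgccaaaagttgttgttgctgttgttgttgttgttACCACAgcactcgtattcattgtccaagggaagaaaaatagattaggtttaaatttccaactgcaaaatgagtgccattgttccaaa
Ncr1: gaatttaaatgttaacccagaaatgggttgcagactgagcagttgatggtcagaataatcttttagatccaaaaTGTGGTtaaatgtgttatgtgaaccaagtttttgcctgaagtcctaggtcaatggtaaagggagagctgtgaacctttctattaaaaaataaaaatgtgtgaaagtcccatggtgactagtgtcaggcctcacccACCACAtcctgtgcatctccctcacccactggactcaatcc
The RUNX letters lay 129 to 124 bases before the Klrk1 start and, on the reverse strand, 87 to 82 bases before the Klrc1 start. In the Ncr1 window they lay 176 to 171 bases and, reversed, 41 to 36 bases before the start. Such matches describe the letters in these windows and not binding.

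The receptor genes were low in all tumors, and SC tumors and intratibial tumors were scaled apart, so levels in CPM are compared only within each of these sets. Of the 168 values (7 genes in 24 tumors) 4 were 0 counts, all at EOS. Compared between genes per kilobase of exon, Klrd1 or Klrg1 was the most abundant in all 10 groups and Klre1 the least. In SC IL-27 tumors Klrd1 reached 9.08 ± 1.85 CPM per kb (SD, n = 2) and Klre1 0.68 ± 0.0394. Within the 8 intratibial groups EOS IL-27 had the lowest mean CPM for 6 of the 7 genes, the exception being Klrc1, which was lowest in EOS control. The highest mean was in D14 IL-27+cabo for Klrb1c, Klrk1, Klrd1 and Klre1, in D14 cabo for Klrc1 and Klrg1, and in D14 control for Ncr1. Most neighbours in these orders overlapped, since between 0 and 2 of the 7 neighbouring pairs of groups per gene did not.

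**Figure D1:**
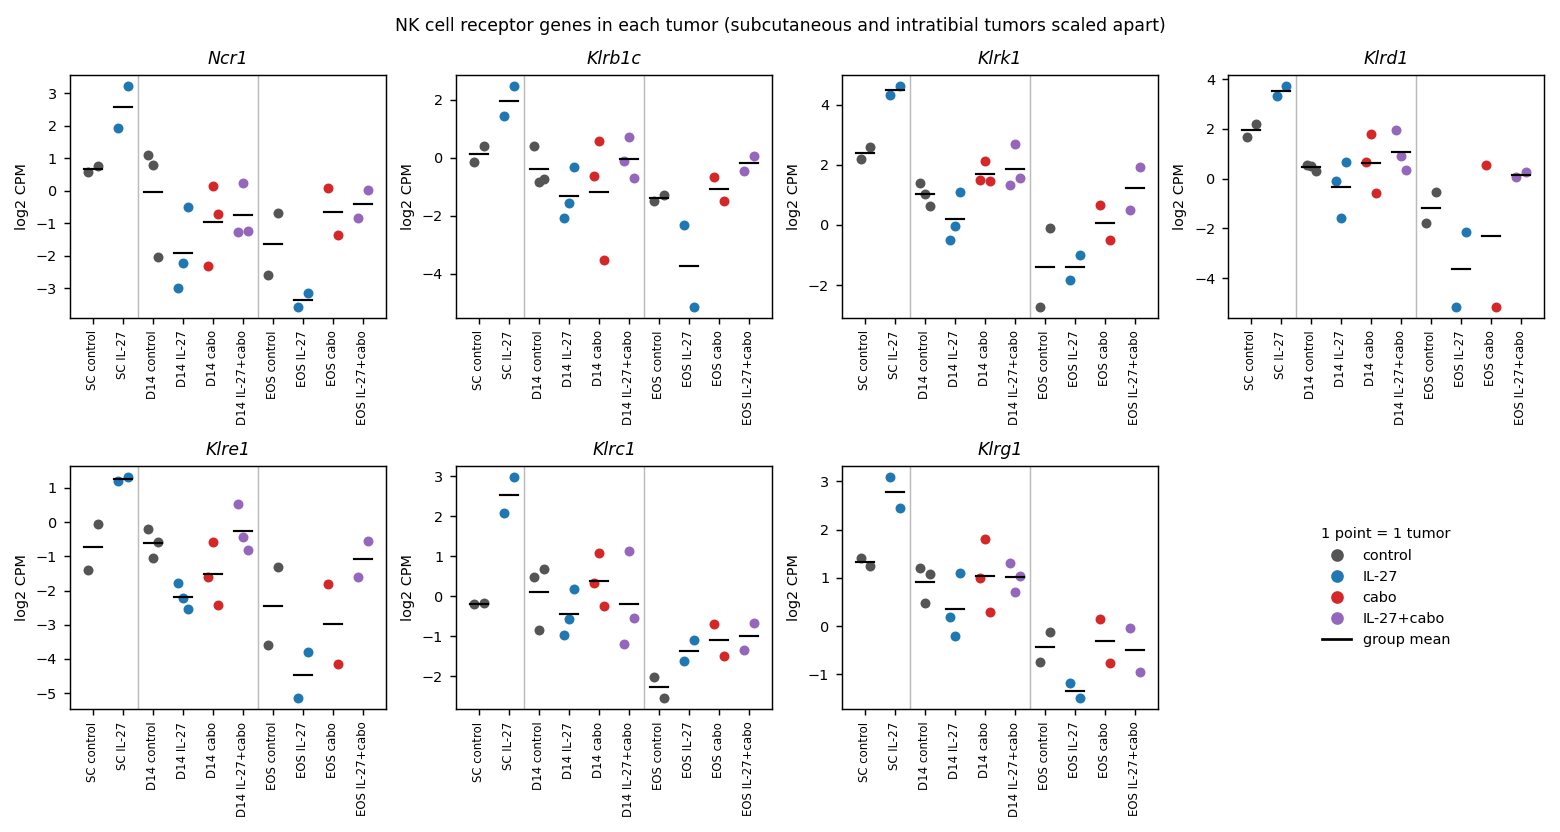
Log2 CPM (y axis, log scale with a prior count of 2) of each NK cell receptor gene in every tumor, by group (x axis); 1 point is 1 tumor, colors are treatments and bars are group means. SC and intratibial tumors were scaled apart, and the lowest points of Klrb1c, Klrd1 and Klre1 are tumors with 0 counts. The SC IL-27 points lie above the SC control points for all 7 genes, while most EOS points lie below the D14 points of the same treatment.

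In SC tumors all 7 genes were higher with IL-27 than with the empty vector, and 3 of them passed the test. The activating receptor Klrk1 was at 4.51 and 5.98 CPM in SC control tumors 1 and 2 (360 and 440 counts) and at 20 and 24.7 CPM in SC IL-27 tumors 1 and 2 (1581 and 1926 counts). Klrk1 rose 4.26-fold (log2 fold change 2.09 ± 0.39, SE, adjusted p = 0.0113, edgeR's quasi-likelihood test with Benjamini-Hochberg adjustment over all genes tested). The inhibitory Klrc1 was at 0.853 and 0.857 CPM in control tumors and at 4.19 and 7.85 CPM in IL-27 tumors. Klrc1 showed the largest fold of the 7 genes, 7.03 (log2 fold change 2.81 ± 0.56, edgeR adjusted p = 0.0144). Its partner Klrd1 was at 3.2 and 4.57 CPM in control tumors and at 9.96 and 13.3 CPM with IL-27, which was 2.99-fold higher (log2 fold change 1.58 ± 0.44, edgeR adjusted p = 0.0473). Both chains of the CD94/NKG2A receptor and NKG2D were thus higher in each IL-27 tumor than in either control tumor. With GC content and transcript length regressed out of every library, none of these calls was kept, at 0.9 for Klrk1 (edgeR adjusted p = 0.146), 1.82 for Klrc1 (0.0742) and 0.58 for Klrd1 (0.408). In bulk tumors, fewer or more cells of a type cannot be told apart from less or more RNA per cell.

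The other 4 genes also showed no overlap between the SC groups but missed the threshold after adjustment. Ncr1 stood at 1.48 and 1.69 CPM in control tumors against 3.77 and 9.42 CPM with IL-27 (log2 fold change 2.06 ± 0.6, edgeR adjusted p = 0.0532). Klrb1c stood at 0.878 and 1.29 CPM against 2.7 and 5.58 CPM (1.93 ± 0.61, edgeR adjusted p = 0.0666). These NK-defining receptors differed more between the IL-27 tumors than between the control tumors, tumor 2 being the higher for each. Klre1 stood at 0.351 and 0.925 CPM against 2.28 and 2.47 CPM (1.9 ± 0.69, edgeR adjusted p = 0.0982). Klrg1 stood at 2.65 and 2.34 CPM against 8.47 and 5.44 CPM (1.48 ± 0.48, edgeR adjusted p = 0.0746), with tumor 1 the higher. All 7 had an unadjusted p under 0.05. With 1 tumor left out the estimates ran from 1.24 (without IL-27 tumor 2) to 2.56 for Ncr1 and from 1.37 to 2.71 for Klre1. They ran from 1.3 to 2.35 for Klrb1c and from 1.12 to 1.75 for Klrg1.

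Read against all 19360 genes tested in SC tumors, 3.52% passed the adjusted threshold as higher with IL-27, 12.3% had an unadjusted p under 0.05 in that direction, and 31.9% were higher with no overlap between the groups. The median log2 fold change of the 7 genes was 1.93, and that of all genes was 0.04. The fold changes in SC tumors ran with base composition. The median log2 fold change was 0.88 among the genes lowest in GC content (17.1 to 44.7% of the transcript, the first of 5 equal bins) and −2.29 among those highest in it (55.5 to 75.5%). Ncr1, Klrk1, Klrd1, Klre1 and Klrc1 were in the lowest bin and Klrb1c and Klrg1 in the next. With this trend removed, all 7 genes stayed higher with IL-27, by 0.58 (Klrd1) to 1.82 (Klrc1) on the log2 scale, and none was called (lowest edgeR adjusted p = 0.0742, Klrc1). DESeq2 on the same counts called all 7. The shares of all genes above are those of edgeR, so that count has no share beside it. Without SC control tumor 1 no gene was called, without SC control tumor 2 only Klrk1 was, without SC IL-27 tumor 1 Ncr1, Klrb1c, Klrk1 and Klrc1 were, and without SC IL-27 tumor 2 Klrk1 and Klrc1 were.

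Other receptors of the NK gene complex were higher in the same SC tumors. Of 16 lectin-like receptor genes tested beside these 7, all 16 had a positive log2 fold change (median 1.83) and 9 rose at an adjusted p under 0.05. With the GC trend removed, 14 of the 16 were higher and 2, Klrb1b and Klra17, were called. Klrb1b, an inhibitory relative of Klrb1c, rose from 1.78 ± 0.405 to 12.7 ± 0.531 CPM (log2 fold change 2.83, edgeR adjusted p = 0.00592) (2.03 with the GC trend removed, edgeR adjusted p = 0.0295). Both partners of Klre1 rose, Klri1 from 0.13 ± 0.0295 to 1.29 ± 0.2 CPM (3.3, edgeR adjusted p = 0.0278) and Klri2 from 1.05 ± 0.383 to 4.63 ± 0.249 CPM (2.14, edgeR adjusted p = 0.0353). With the GC trend removed neither partner was called (Klri1 2.33, edgeR adjusted p = 0.112, and Klri2 0.91, edgeR adjusted p = 0.286). Of 16 other NK surface receptors 5 rose, among them Slamf7 (2.51, edgeR adjusted p = 0.00817). With the GC trend removed all 16 were higher and 4 were called, 3 of them called before as well, Slamf7 included (1.84, edgeR adjusted p = 0.0341).

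Adaptors and ligands of these receptors did not rise with them as a set in SC IL-27 tumors. Of 14 adaptor and signaling genes none rose and 3 fell, where 16.5% of all genes tested fell. Hcst, through which Klrk1 signals, had 23 and 24 counts in control tumors and 0 in both IL-27 tumors, and Tyrobp (DAP12), an adaptor of activating receptors, fell by 2.11 on the log2 scale (edgeR adjusted p = 0.0301). H2-T23, the ligand of Klrd1 with Klrc1, fell by 1.76 on the log2 scale, from 46.4 ± 14.8 to 13.7 ± 6.57 CPM (edgeR adjusted p = 0.0388). Transcripts of Tyrobp and H2-T23 have GC contents of 54.6 and 55.6%, and with the GC trend removed neither was called (edgeR adjusted p = 0.392 and 0.803), nor was Hcst (edgeR adjusted p = 0.164). With that trend removed 1 of the 14 was called lower and 1 called higher, the latter being Fcer1g, the Fc receptor gamma chain (1.56, edgeR adjusted p = 0.0254, against 0.34 and 0.598 before), which was named after its values had been seen. The Klrk1 ligand Raet1e was at 34.9 ± 12.8 and 41.9 ± 5.27 CPM (edgeR adjusted p = 0.655). The ligand list summed to 360 to 391 CPM in control and 353 to 404 CPM in IL-27 tumors, which overlapped. With the GC trend removed 8 of the 14 ligands tested were higher and none was called higher. Only Cfp was called lower (−2.05, edgeR adjusted p = 0.00884), and it was also called before that removal.

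Of 12 genes for cytotoxic effectors and NK products 2 rose and 2 fell in the same tumors, and with the GC trend removed 9 were higher, 1 of them called, and none was called lower. Gzma (granzyme A) rose from 0.995 ± 0.325 to 13.5 ± 10.9 CPM (log2 fold change 3.76, edgeR adjusted p = 0.0132, and 0.0294 with the GC trend removed). Prf1 (perforin) fell by 2.22 on the log2 scale (edgeR adjusted p = 0.0156, and 0.159 with the GC trend removed). Gzmb (granzyme B) was at 8.98 ± 2.97 and 22.7 ± 11 CPM (log2 fold change 1.34, edgeR adjusted p = 0.0996). None of the 10 NK transcription factors tested was called by edgeR, with 1 at an unadjusted p under 0.05. Eomes, the factor of mature NK cells, was at 3.24 ± 0.598 and 5.52 ± 1.33 CPM (log2 fold change 0.77, edgeR adjusted p = 0.293). With the GC trend removed it was called higher (2.7, edgeR adjusted p = 0.0173), the only 1 of the 10.

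Markers of other cells moved with the receptor genes in SC tumors. The summed level of 12 T cell genes was 11.8 to 14.5 CPM in control tumors and 35.7 to 40.8 CPM in IL-27 tumors, with 3 of 12 called higher and 1 of 12 with the GC trend removed. Of the pan-leukocyte genes, Ptprc (CD45) rose from 53.4 ± 33.2 to 216 ± 7.98 CPM (2.02, edgeR adjusted p = 0.0287, and 0.97 and 0.0756 with the GC trend removed), whereas 2 of the 5 fell and none of the 5 was called with that trend removed, and their sum was 347 to 354 CPM against 405 to 563 CPM. Genes of group 1 and other innate lymphoid cells summed to 41.2 to 77.6 CPM in control and 190 to 207 CPM in IL-27 tumors (4 of 8 called higher, and 2 with the GC trend removed), and marrow neutrophil genes to 1.79 to 3.16 CPM and 39.3 to 40.7 CPM (5 of 8, also with the trend removed). B cell genes summed to 9.41 to 10.5 CPM in control tumors and to 16 and 395 CPM in IL-27 tumors 1 and 2, so that tumor 2 stood apart, and macrophage genes overlapped, at 2280 to 3540 CPM and 2530 to 4060 CPM. Skeletal muscle genes summed to 57 to 106 CPM in control and 474 to 1350 CPM in IL-27 tumors, with 17 of 20 called higher, also with the trend removed. The part of these other cells in the receptor levels was not tested.

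In bone on day 14 all 7 genes had a lower fitted level with IL-27 than with control, and none passed the test. Klre1 was at 0.847, 0.453 and 0.646 CPM in D14 control tumors 3, 5 and 7 and at 0.264, 0.186 and 0.144 CPM in D14 IL-27 tumors 4, 6 and 8. It was the only 1 of the 7 with no overlap, a log2 fold change of −1.69 ± 0.52 (edgeR adjusted p = 1.0). Ncr1 was at 2.12, 1.72 and 0.215 CPM in control tumors and at 0.0972, 0.186 and 0.69 CPM in IL-27 tumors (log2 fold change −2.04 ± 0.95). Its groups overlapped because control tumor 7 lay below IL-27 tumor 8. The other 5 genes had log2 fold changes of −0.48 (Klrg1), −0.52 (Klrd1), −0.61 (Klrc1), −0.7 (Klrk1) and −0.88 (Klrb1c), and in each of them IL-27 tumor 8 was the highest of its group and overlapped the controls. Without that tumor the log2 fold changes were −3.22 (Ncr1), −1.61 (Klrb1c), −1.31 (Klrk1), −1.13 (Klrd1), −1.0 (Klrc1) and −0.95 (Klrg1). Leaving out another tumor brought them as near to 0 as −1.56 for Ncr1 and −0.35 for Klrb1c (without control tumor 3), −0.41 for Klrk1 (without IL-27 tumor 4), −0.11 for Klrd1 and −0.24 for Klrg1 (without IL-27 tumor 6) and −0.32 for Klrc1 (without control tumor 7).

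Among all 18519 genes tested on day 14 with IL-27, 0% passed the adjusted threshold in either direction, 1.85% were lower at an unadjusted p under 0.05 and 4.73% were lower with no overlap. Of the 7 receptor genes 0 were called by edgeR and 0 by DESeq2, and 1 (Klre1) had an unadjusted p under 0.05. The median log2 fold change was −0.7 for the 7 genes and 0.02 for all genes. Other leukocyte lists had medians of −0.96 for 13 lectin-like receptor genes, −1.03 for 12 T cell genes and −0.6 for the 5 pan-leukocyte genes, none of them called. The summed levels of the lectin-like receptors overlapped, at 30.7 to 43 CPM in control and 29.5 to 43.3 CPM in IL-27 tumors, as did those of the T cell genes, at 86.9 to 92.7 CPM and 14.9 to 90.2 CPM. The pan-leukocyte sum was 252 to 369 CPM in control and 138 to 218 CPM in IL-27 tumors, and muscle genes summed to 48 to 222 CPM and 73.8 to 2360 CPM. With the muscle level as a covariate all 7 receptor genes were still lower, by 0.77 to 3.05 on the log2 scale, and none was called.

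On day 14 no receptor gene was called with cabozantinib or with the combination, whereas some T cell genes fell. With cabo, 4 of the 7 genes were higher and 3 lower, and their median log2 fold change was 0.19. Without cabo tumor 25 only 1 was higher. Klrk1 was at 2.6, 2.03 and 1.51 CPM in control tumors and at 2.79, 4.32 and 2.7 CPM in cabo tumors 21, 25 and 27. It was the only 1 of the 7 with no overlap, 0.66 ± 0.29 on the log2 scale (edgeR adjusted p = 0.276). With IL-27+cabo, Klrk1 was at 2.51, 6.38 and 2.93 CPM in tumors 20, 22 and 24 (0.95 ± 0.45, edgeR adjusted p = 0.807), and tumor 20 overlapped the control tumors. There 5 of the 7 genes were higher and the median was 0.37. No receptor gene was called by edgeR or DESeq2 in either comparison and 0 had an unadjusted p under 0.05. Of all genes, 1.89% were called with cabo in either direction, 18.9% had an unadjusted p under 0.05 and 14.9% were higher with no overlap, and with IL-27+cabo 0.064% were called and 6.2% had an unadjusted p under 0.05.

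In the same cabo tumors 7 of 12 T cell genes fell (median log2 fold change −1.53), among them Cd3e (−1.97, edgeR adjusted p = 0.00399), and 4 of 14 adaptor and signaling genes did. With IL-27+cabo the T cell list fell in 1 gene, Cd3e (−2.67, edgeR adjusted p = 0.0406). The summed T cell level was 86.9 to 92.7 CPM in D14 control, 24.9 to 37.2 CPM in D14 cabo and 22.2 to 30.2 CPM in D14 IL-27+cabo tumors, with no overlap between treated and control tumors. Muscle genes summed to 1420 to 2170 CPM in cabo and 1870 to 5610 CPM in IL-27+cabo tumors, and with that level as a covariate Klrk1 was at 0.96 and 1.33 on the log2 scale against control, still not called.

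The effect of IL-27 on day 14 was also compared with and without cabozantinib, as the departure of IL-27+cabo from the sum of both single log2 changes. All 7 estimates were positive, with a median of 0.98 (log2), and none was called by edgeR or DESeq2. Klre1 departed most, by 2.98 ± 0.86 (edgeR adjusted p = 0.952), and Klrk1 by 0.98 ± 0.67. With 1 tumor left out these ran from 2.45 to 3.64 for Klre1 and from 0.46 to 1.59 for Klrk1. Klre1 was at 1.42, 0.704 and 0.535 CPM in IL-27+cabo tumors and at 0.302, 0.642 and 0.16 CPM in cabo tumors. The IL-27+cabo tumors thus lay within or above the control range, and the IL-27 tumors below it. Of all 19899 genes 0% were called in either direction and 1.4% were higher at an unadjusted p under 0.05, as 1 of the 7 receptor genes was. The D14 comparisons share the same control tumors.

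**Figure D2:**
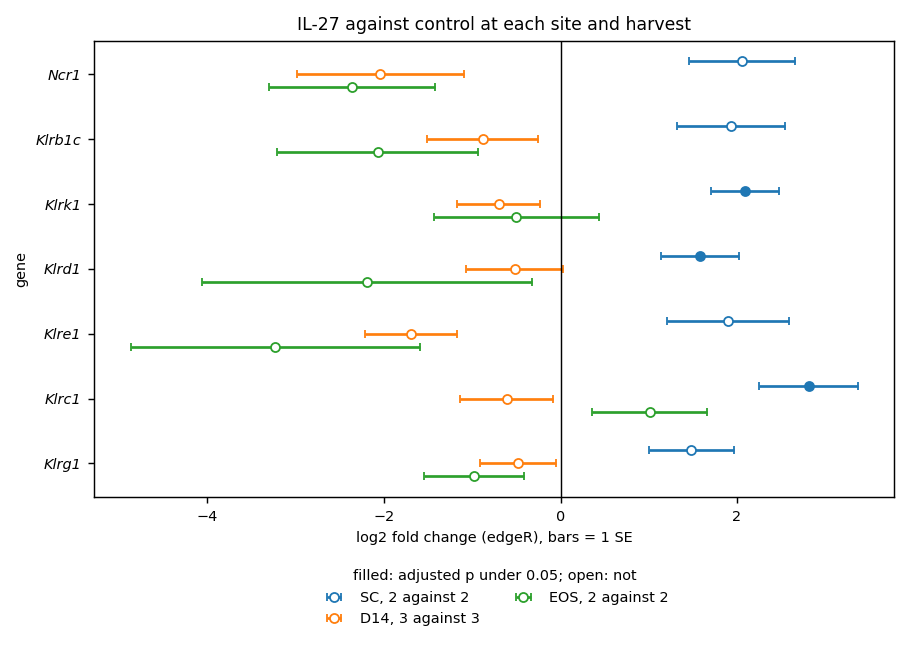
Log2 fold change of IL-27 against control (x axis) for each receptor gene (y axis) in SC tumors (2 against 2), D14 tumors (3 against 3) and EOS tumors (2 against 2); points are edgeR estimates, bars are 1 SE and filled points have an adjusted p under 0.05. All 7 SC estimates lie above 0, with Klrk1, Klrd1 and Klrc1 filled, and all 7 D14 estimates lie below 0.

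At EOS the mean level was lowest with IL-27 for 6 of the 7 receptor genes, and none passed the test. Ncr1 was at 0.138 and 0.601 CPM in EOS control tumors 13 and 9 and at 0.0567 and 0.0856 CPM in EOS IL-27 tumors 10 and 12 (4 and 6 counts). Its log2 fold change with IL-27 was −2.36 ± 0.94 (edgeR adjusted p = 1.0), and −0.94 without EOS control tumor 9. Klre1 had 4 and 26 counts in control tumors and 0 and 3 counts in IL-27 tumors, a ratio of 0.101 for the summed counts (95% interval 0.0198 to 0.326, exact, counting error only). Most of the control counts came from tumor 9, and the edgeR log2 fold change was −3.23 ± 1.64. The interval takes each count as independent and leaves out the spread between tumors. Klrd1 had 19 and 46 counts in control tumors against 0 and 14, and Klrb1c had 24 and 27 against 12 and 0. A count of 0 in these libraries allows up to 3 counts, or 0.0425 to 0.0428 CPM. Klrc1 went the other way, at 0.22 and 0.143 CPM in control and 0.298 and 0.442 CPM in IL-27 tumors, with no overlap.

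With IL-27 at EOS 6 of the 7 genes were lower (median log2 fold change −2.07, against −0.02 for all genes), 5 of them (Ncr1, Klrb1c, Klrd1, Klre1 and Klrg1) with no overlap. Of all 20026 genes tested at EOS, 16.3% were lower and 16.5% higher with no overlap between these groups, 1.68% were lower at an unadjusted p under 0.05 and 0% were called in either direction. The 12 T cell genes had a median of 0.1 in this comparison and their sum was 14.9 to 17.4 CPM in control and 14.6 to 18.4 CPM in IL-27 tumors. The pan-leukocyte sums overlapped too, at 115 to 189 CPM in control and 78.7 to 172 CPM in IL-27 tumors. Other sums were lower with IL-27 with no overlap, at 36.4 to 63.9 CPM against 21.8 to 25.6 CPM for cytotoxic effectors, 52.1 to 58.8 CPM against 34.7 to 44.7 CPM for innate lymphoid cells and 26 to 31.5 CPM against 22.5 to 25.8 CPM for the other lectin-like receptors. The marrow neutrophil sum was too, at 1.53 to 8.23 CPM against 0.836 to 0.985 CPM. Sums overlapped for other NK surface receptors (91.6 to 108 CPM against 84.9 to 115 CPM) and for adaptors (100 to 148 CPM against 71.6 to 134 CPM). Those of NK transcription factors did as well (191 to 274 CPM against 182 to 209 CPM). Sums of B cell genes (6.55 to 7.26 CPM against 10.4 to 11.7 CPM) and gamma delta T cell genes (1.89 to 2.28 CPM against 2.4 to 2.48 CPM) were higher with IL-27 with no overlap.

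Klrk1 had the highest estimate of the 7 genes with the combination at EOS. It was at 0.124 and 0.902 CPM in control tumors 13 and 9, at 1.54 and 0.672 CPM in cabo tumors 19 and 23, and at 1.4 and 3.81 CPM in IL-27+cabo tumors 16 and 28. With IL-27+cabo its log2 fold change was 2.32 ± 0.93 (edgeR adjusted p = 0.327) and with cabo alone 1.1 ± 0.91. Single tumors decided these sizes. Without EOS control tumor 9 the estimates were 4.36 and 3.15, without EOS control tumor 13 they were 1.5 and 0.28, without IL-27+cabo tumor 28 the first was 1.45, and without cabo tumor 19 the second was 0.39. With IL-27+cabo 6 of the 7 genes were higher (median 1.23), 4 of them (Klrb1c, Klrc1, Klrd1 and Klrk1) with no overlap, and with cabo 6 were higher (median 0.65), with no overlap only for Klrc1. Without cabo tumor 19 only 2 were higher with cabo. Among all genes 21.6% were higher with no overlap for IL-27+cabo and 21.8% for cabo. At an unadjusted p under 0.05, 7.36% were higher with IL-27+cabo and 8.9% differed in either direction with cabo. For both, 0% were called after adjustment. No receptor gene was called by edgeR or DESeq2 in the EOS treatment comparisons, and 1, 0 and 1 had an unadjusted p under 0.05 with IL-27, with cabozantinib and with both. The 12 T cell genes had a median of −0.95 with IL-27+cabo, the 5 pan-leukocyte genes 0.89 and the 20 muscle genes 3.75. The 3 comparisons share the EOS control tumors, and their differences from the D14 changes were not called for any receptor gene (edgeR, median difference −0.47 with IL-27, 0.44 with cabozantinib and 0.91 with both, no unadjusted p under 0.05, none by DESeq2). For those differences 0%, 0.0788% and 0.0788% of all 21563 genes were called and 1.93%, 4.11% and 9.14% had an unadjusted p under 0.05.

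Most receptor genes had a lower estimate at EOS than on day 14 within each treatment. In control tumors all 7 were lower (median log2 fold change −1.59, all genes 0), 6 of them with no overlap, all but Ncr1. Klrc1 had the lowest estimate, at 1.37, 0.53 and 1.56 CPM in D14 tumors and 0.22 and 0.143 CPM in EOS tumors (−2.65 ± 0.65, edgeR adjusted p = 0.202), and DESeq2 called it (adjusted p = 0.012). The estimates of the others were −1.16 (Klrb1c), −1.39 (Klrg1), −1.55 (Klrd1), −1.59 (Klre1), −1.87 (Ncr1) and −1.99 (Klrk1). Without EOS control tumor 9 and without EOS control tumor 13 these were −4.03 and −1.17 for Klrk1, −3.52 and −0.79 for Klre1, −3.28 and −1.15 for Ncr1 and −2.36 and −1.03 for Klrd1, and that of Klrb1c was −0.62 without D14 control tumor 3. Of all 19292 genes 0.104% were called in either direction, 7.22% were lower at an unadjusted p under 0.05, as 4 of the 7 receptor genes were, and 17.6% were lower with no overlap.

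In IL-27 tumors all 7 genes were lower at EOS than on day 14 with no overlap (median −2.15). Klrd1 was at 0.903, 0.31 and 1.58 CPM on day 14 and at 0 and 0.2 CPM at EOS (−3.19 ± 1.34, edgeR adjusted p = 0.818). Klre1 had 41 counts over the D14 tumors and 3 over the EOS tumors, a ratio of 0.107 at equal depth (95% interval 0.0212 to 0.336, exact, counting error only). Its edgeR log2 fold change was −3.1 ± 1.36. The remaining estimates were −1.0 (Klrc1), −1.76 (Klrk1), −1.86 (Klrg1), −2.15 (Ncr1) and −2.31 (Klrb1c), each with an edgeR adjusted p of 0.818. Leaving out 1 EOS tumor moved the estimates of the genes with a count of 0 most, to between −9.01 and −2.2 for Klrd1, −7.9 and −1.33 for Klrb1c and −6.79 and −2.15 for Klre1, the lowest being without EOS IL-27 tumor 12 for Klrd1 and Klre1 and without tumor 10 for Klrb1c, where the EOS tumor left had 0 counts and the size is that of the fit alone. That of Klrk1 was −1.17 to −2.27 and that of Klrc1 −0.63 to −1.32 when 1 tumor was left out. Of all genes 11.6% were lower with no overlap, 3.08% were lower at an unadjusted p under 0.05 against 3 of the 7, and 0% were called in either direction. DESeq2 called none of the 7. Other sums were also lower at EOS with no overlap. Muscle genes went from 73.8 to 2360 CPM on day 14 to 69.3 to 70.6 CPM. Cytotoxic effectors went from 27.5 to 66.9 CPM to 21.8 to 25.6 CPM, and marrow neutrophil genes from 3.19 to 5.1 CPM to 0.836 to 0.985 CPM. T cell sums (14.9 to 90.2 CPM and 14.6 to 18.4 CPM) and pan-leukocyte sums (138 to 218 CPM and 78.7 to 172 CPM) overlapped.

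With cabozantinib none of the 7 genes was called by edgeR between day 14 and EOS, and 3 with cabo and 2 with IL-27+cabo were lower with no overlap. In cabo tumors Klrk1 was at 2.79, 4.32 and 2.7 CPM on day 14 and at 1.54 and 0.672 CPM at EOS (−1.53 ± 0.43, edgeR adjusted p = 0.138, DESeq2 adjusted p = 0.0117). Klrc1 (−1.55 ± 0.51) and Klrg1 (−1.41 ± 0.53) were also lower with no overlap, and 3 of the 7 had an unadjusted p under 0.05. Of all genes 2.09% were called in either direction, 9.53% were lower at an unadjusted p under 0.05 and 20.3% were lower with no overlap. In IL-27+cabo tumors Klrg1 was at 2.43, 1.6 and 2.01 CPM on day 14 and at 0.936 and 0.484 CPM at EOS (−1.53 ± 0.57, edgeR adjusted p = 0.925). It and Klrd1 were lower with no overlap, against 10.8% of all genes, and 1 of the 7 had an unadjusted p under 0.05, against 2.79%. There 0% of genes were called in either direction by edgeR, and DESeq2 called 0 of the 7. Muscle sums went from 1420 to 2170 CPM on day 14 to 191 to 1150 CPM at EOS with cabo. With IL-27+cabo they went from 1870 to 5610 CPM to 162 to 321 CPM. T cell sums went from 24.9 to 37.2 CPM to 6.44 to 9.73 CPM with cabo, and from 22.2 to 30.2 CPM to 6.49 to 11.4 CPM with IL-27+cabo. Pan-leukocyte sums overlapped with IL-27+cabo (277 to 316 CPM and 187 to 374 CPM) but not with cabo (286 to 356 CPM and 187 to 221 CPM).

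**Figure D3:**
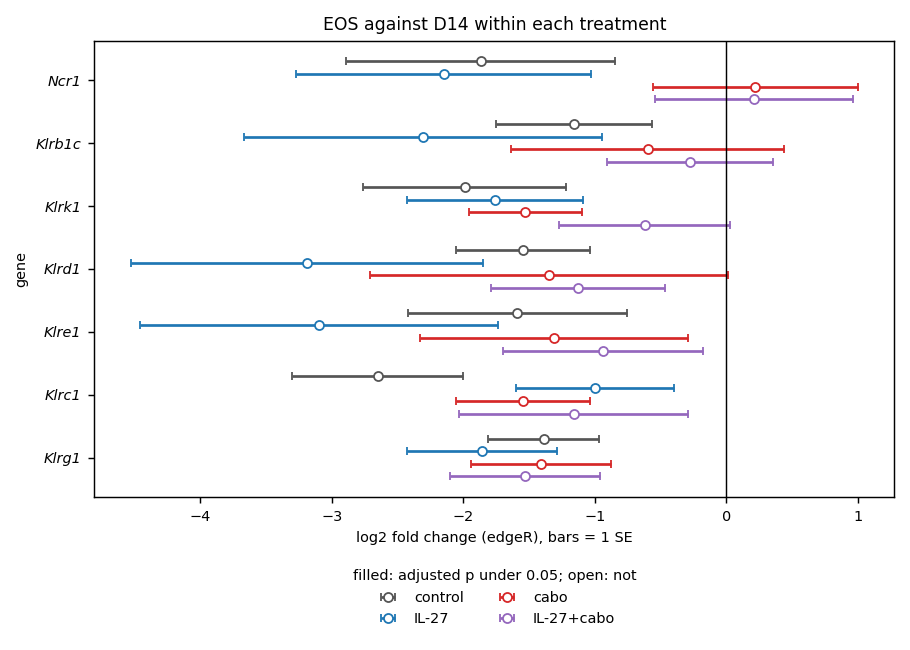
Log2 fold change of EOS against D14 tumors (x axis) for each receptor gene (y axis) within each treatment (colors); points are edgeR estimates and bars are 1 SE, 2 EOS against 3 D14 tumors. Open points mark an adjusted p not under 0.05, which holds for all points. All estimates lie below 0 apart from those of Ncr1 with cabo and IL-27+cabo.

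Some T cell genes fell between day 14 and EOS. In control tumors 5 of 12 fell (median −2.44), among them Cd3e (−2.51, edgeR adjusted p = 0.0256), and in cabo tumors 2 of 12 fell (median −2.36). The 15 lectin-like receptor genes had a median of −0.97 in control tumors with none called, and Eomes was at 4.74 ± 0.78 CPM (n = 3) on day 14 and 1.91 ± 0.155 CPM (n = 2) at EOS. The pan-leukocyte genes had a median of −1.06 and the muscle genes −2.56. The part of these other cells in the receptor levels was not tested.

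The change with IL-27 in SC tumors was then tested against that in bone, a comparison chosen after the values had been seen. Against day 14 the difference was positive for all 7 genes and called for 5, with log2 differences of 4.11 ± 1.35 (Ncr1, edgeR adjusted p = 0.0496), 3.6 ± 0.81 (Klre1, 0.00852), 3.45 ± 0.81 (Klrc1, 0.0106), 2.81 ± 0.65 (Klrk1, 0.0101) and 1.96 ± 0.64 (Klrg1, 0.0497). The differences for Klrb1c (2.84 ± 0.94) and Klrd1 (2.12 ± 0.76) had edgeR adjusted p of 0.0518 and 0.0708. Of all 20977 genes 5.51% were called in this direction and 13% had an unadjusted p under 0.05 in it, against all 7. Against EOS, Ncr1 (4.39 ± 1.1, edgeR adjusted p = 0.027) and Klrg1 (2.43 ± 0.64, edgeR adjusted p = 0.0342) were called, and the others ranged from 1.78 (Klrc1) to 5.11 (Klre1). There 1.93% of all 20754 genes were called in this direction and 9% had an unadjusted p under 0.05 in it, again against all 7. With the GC trend removed, only Klre1 (edgeR adjusted p = 0.047) was called against day 14 and none against EOS. Leaving out 1 tumor at a time gave 2 to 7 calls against day 14, the fewest without SC control tumor 1 and the most without D14 IL-27 tumor 8. Against EOS it gave 0 without SC control tumor 1, SC control tumor 2 or EOS control tumor 9, and 4 without EOS control tumor 13. These tumors differed in cell line (TC2Ras or TC2Ras-Luc), site, harvest time, vehicle and title code as well, which cannot be told apart.

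Across the 20 intratibial tumors the receptor genes varied together to different degrees. The highest Pearson r of log2 CPM was 0.88, between Klrd1 and Klre1, which lie next to each other, and the lowest was 0.39, between Ncr1 and Klrc1. Klrd1 had r = 0.53 with its partner Klrc1, and the mean of the 7 genes had r = 0.89 with Klri2 and 0.54 with Klri1, the partners of Klre1. These correlations are descriptions over 20 tumors that share the same libraries, depth and mix of cells.

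**Figure D4:**
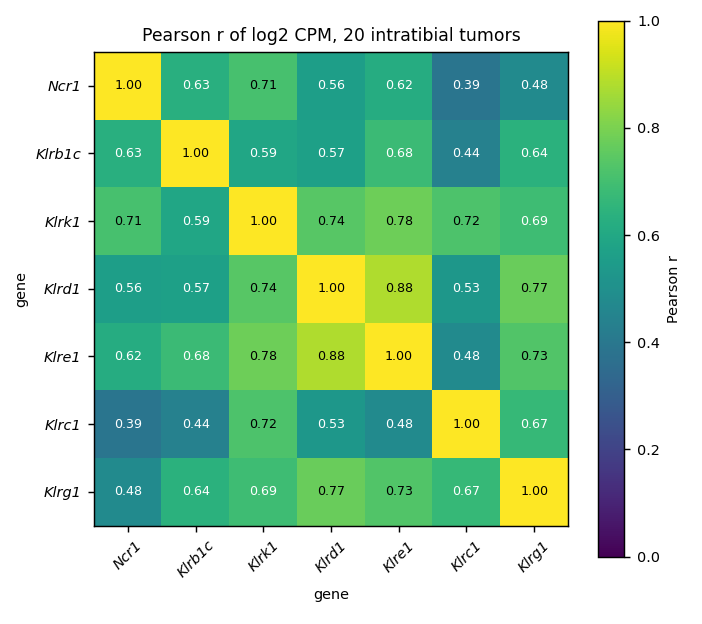
Pearson r of log2 CPM between each pair of receptor genes (both axes) over the 20 intratibial tumors, with r as color and number. Klrd1 and Klre1 have the highest r (0.88), and Ncr1 and Klrc1 the lowest (0.39).

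The mean log2 CPM of the 7 genes was correlated to different degrees with the other lists. Its r was 0.91 with the other lectin-like receptors, 0.89 with the pan-leukocyte genes and 0.85 with cytotoxic effectors and NK products. It was 0.75 with macrophage genes and with innate lymphoid genes, 0.73 with other NK surface receptors and 0.72 with adaptors and signaling genes. Lower values were 0.58 with gamma delta T cell genes, 0.56 with muscle genes, 0.49 with NK transcription factors and 0.48 with the T cell genes. The lowest were 0.44 with marrow neutrophil genes, 0.39 with prostate epithelium and tumor line genes, 0.28 with B cell genes and 0.27 with ligands. With the total count of the library r was 0.17. Among single genes it was 0.81 with Gzmb (granzyme B), 0.78 with Ptprc, 0.76 with Gzma, 0.5 with Eomes, 0.4 with Prf1 and 0.26 with Cd3e. Of all genes that passed the filter, those most like the mean were H2-Q4 (r = 0.933), Tgtp1 (0.912), H2-T10 (0.91), Tgtp2 (0.908), Ifi47 (0.904), Cxcl9 (0.901), Zbp1, Tap2 and Sp110 (each 0.898) and Phf11b (0.897). For the receptors other than Ncr1, the gene most like each alone was Gbp2 for Klrk1 (0.948), H2-Q7 for Klre1 (0.929), Klrb1b for Klrg1 (0.897), H2-Q6 for Klrd1 (0.892), Gm11131 for Klrb1c (0.832) and Sema3c for Klrc1 (0.828).

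**Figure D5:**
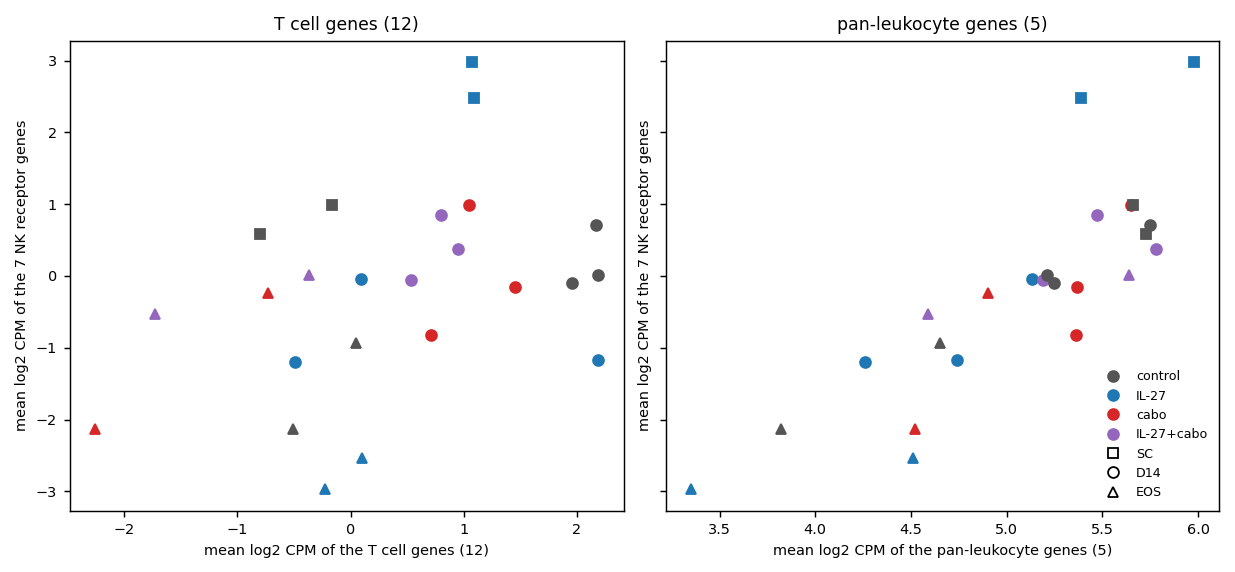
Mean log2 CPM of the 7 receptor genes (y axis) against that of 12 T cell genes (left, x axis) and of 5 pan-leukocyte genes (right, x axis); 1 point is 1 tumor, with color for treatment and shape for SC, D14 or EOS, and SC tumors were scaled apart. The points follow the pan-leukocyte genes more closely (r = 0.89 over the 20 intratibial tumors) than the T cell genes (r = 0.48).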

How the data were processed

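Poly(A) RNA of 24 tumors was sequenced with a stranded kit and paired reads. The authors deposited 1 table of raw counts per Ensembl gene, not normalized. Their processing notes name FastQC, HISAT2, StringTie and DESeq2 without versions and the build GRCh38, although the identifiers are those of mouse. The counting program is not given in the sources used here. Between 30.4 and 35.5% of the counts from 1 to 20 in a library were multiples of 4.

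Symbols and loci were taken from GENCODE M21, which matched 55141 of the 55401 identifiers. Groups came from the sample titles. The receptor genes and the comparison lists were chosen with earlier results of these data known. All 7 genes were named in each comparison. From the other lists, genes were named as partners, ligands, adaptors or markers, or as the called genes of smallest p with no overlap between the groups.

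CPM used TMM library sizes from edgeR 4.0.16 in R 4.3.3, for SC and intratibial tumors apart. Log2 CPM used a prior count of 2. Genes that passed filterByExpr were tested with edgeR's quasi-likelihood F test, two-sided, with Benjamini-Hochberg adjustment over all genes tested, and were called at an adjusted p under 0.05. The 4 EOS groups shared 1 fit. Groups with no overlap are those in which every tumor of 1 group lies above every tumor of the other. The code was tested on simulated data. Alternatives were DESeq2 1.42.0, RLE size factors, no filter, counts divided by 4, GC content and transcript length regressed out of every library (splines with 5 degrees of freedom), the muscle level as a covariate, all tumors in 1 fit, robust dispersion, the replicate block and leaving out each tumor. Libraries held 63729005 to 83782258 counts. Intervals and floors (3 counts) cover counting error only, since reads carried no molecular identifiers. They take each count as independent, so they may be too narrow where low counts come in multiples of 4. The gene most like Ncr1 alone is not reported here.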

Additional observations from a re-analysis of the deposited data

Results flagged for a closer look

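The change of the receptor genes with IL-27 differed between SC tumors and bone, with a test of the difference past the threshold for some genes and with tumors of the 2 sites moving in opposite directions for others. Against day 14 the log2 change in SC tumors minus that in bone was 4.11 for Ncr1, 3.6 for Klre1, 3.45 for Klrc1, 2.81 for Klrk1 and 1.96 for Klrg1, all with an edgeR adjusted p under 0.05. Against EOS it was 4.39 for Ncr1 and 2.43 for Klrg1, past the same threshold. With GC content and length removed the 5 calls against day 14 became 1 (Klre1) and the 2 against EOS became 0, and leaving out 1 tumor gave 2 to 7 and 0 to 4 calls. The difference for Ncr1 then ran from 3.25 to 5.31 against day 14 and from 2.97 (without EOS control tumor 9) to 5.08 against EOS. For Klre1 (5.11, edgeR adjusted p = 0.0719), Klrd1 (3.76, 0.0993) and Klrb1c (3.97, 0.104) the difference missed the threshold, although every SC IL-27 tumor lay above both SC control tumors and every EOS IL-27 tumor below both EOS control tumors. Of all genes 31.9% were higher with no overlap in SC tumors and 16.3% lower at EOS, and for Klre1 the nearest EOS tumors had 3 and 4 counts. Leaving out 1 tumor moved these differences to 3.17 to 8.89 for Klre1, 2.76 to 9.68 for Klrd1 and 2.97 to 9.67 for Klrb1c. For each of these genes 1 EOS IL-27 tumor had 0 counts. Where only that tumor was left, the size is that of the fit alone. SC and bone tumors differed at the same time in cell line, harvest, vehicle and title code, and muscle genes summed, with each set scaled apart, to 57 to 106 CPM in SC control and 474 to 1350 CPM in SC IL-27 tumors, to 48 to 222 CPM and 73.8 to 2360 CPM on day 14, and to 50.3 to 92.7 CPM and 69.3 to 70.6 CPM at EOS. Their part in the difference was not tested.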

How the results depend on the processing

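In 14 of the 17 comparisons no receptor gene was called to begin with, and 177 of 179 recomputed counts there were again 0, which says nothing of stability in groups this small. In the other 3, 15 of 42 recomputed counts were within 1.5 times the first count, 23 were lower and 4 higher. The log2 changes were recomputed only for the genes whose value is printed for a comparison. Of those 669 recomputed values 56 lost a call and 31 gained one, and none reversed. Others did, since the number of receptor genes higher with cabo went from 4 to 1 on day 14 without cabo tumor 25 and from 6 to 2 at EOS without cabo tumor 19. For IL-27 in SC tumors (3 called), DESeq2 called 7, removal of GC content and length 0, and leaving out 1 tumor 0 to 4. The replicate block called 5 (Ncr1, Klrb1c, Klrk1, Klrd1 and Klrc1) and 0 with GC content and length removed as well. Shares of all genes are given for the main edgeR fits only, so counts from the alternatives have none beside them. The SC replicate numbers share a number only (correlation of deviations 0.031), and no block could be fitted for bone tumors, whose mouse numbers differ between groups. DESeq2 called 1 gene, from 0, for EOS against day 14 in control tumors (Klrc1) and in cabo tumors (Klrk1). No other alternative called a receptor gene in the bone comparisons.

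For the added difference between SC tumors and day 14 (5 called), the count was 3 without a filter, 1 with GC content and length removed, 3 with all 24 tumors in 1 fit and 2 to 7 leaving out 1 tumor. For that between SC tumors and EOS (2 called), it was 6 with DESeq2, 1 without a filter, 0 with GC content and length removed and 0 to 4 leaving out 1 tumor. Where leaving out a tumor left 1 in a group, that tumor was taken to vary like the others. The mean of Klrc1 in SC control moved to 0.833 CPM with RLE size factors, from 0.855. The cause of these changes was not tested. At EOS several receptor genes had under 30 counts a tumor, which limits what these groups can show.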
